A study of Mus musculus with 63 samples.

Results

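Expression of 38 genes of glycolysis and of the hypoxia response was followed by RNA-Seq in organoids of mouse intestine and in isolated intestinal epithelial cells (IECs) that carried, or had lost, the Mediator kinases CDK8 and CDK19. The genes were chosen by name, and all 38 names occurred in the count tables, among 54752 gene identifiers. The name Aldoa matched 2 identifiers, so that 39 rows in all bore these names, and the main Aldoa gene was used. Of the 38 genes, 36 passed the filter on low counts in each fit, whereas Slc2a3 was tested in IECs only and Eno2 in no fit.

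The comparisons used 57 libraries in 19 groups of 3, each read at 15485959 to 32909565 counts. Organoids are epithelial cultures grown from crypts in Matrigel, with a medium of Noggin, R-Spondin and EGF. Organoid lines of VillinCreERT2, C57BL/6, CDK8iIEC-KO, Cdk8 fl/fl/Cdk19-/- and CDK8iIEC-KO/Cdk19-/- genotype were each given 4-hydroxytamoxifen (4-OHT, 100 nM for 24 h) and collected at day 7. A line of VillinCreERT2/Cdk8 fl/fl/Cdk19-/- genotype was given 4-OHT or EtOH (0.001%) and collected at days 3, 5, 7 and 10, and again at day 10 in Wnt3-conditioned medium (Wnt3-CM). Both arms of this line therefore lacked CDK19, and 4-OHT removed CDK8. A line of VillinCreERT2/Cdk8 fl/fl genotype with 1 kinase-dead and 1 deleted Cdk19 allele (Cdk19 D173A/-), from which 4-OHT likewise removes CDK8, was treated in the same way and collected at day 7, and its columns were assigned by elimination because their names gave only a number. IECs came from VillinCreERT2 and CDK8iIEC-KO/Cdk19-/- mice 14 days after 5 injections of tamoxifen at 80 mg/kg. The Cre is driven by the Villin promoter and so acts in the intestinal epithelium. The organoid lines differ in origin as well as in genotype, so that genotype and line cannot be told apart among them. EtOH and 4-OHT were compared within a line, where loss of CDK8 coincides with exposure to 4-OHT and activation of the Cre. No VillinCreERT2 or C57BL/6 organoids given EtOH were among the libraries, so that these cannot be told apart. Nothing in the labels says that the 3 libraries of a group were separate cultures, and p-values then measure only the spread between these libraries.

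Glycolysis splits glucose into pyruvate, and lactate dehydrogenase turns pyruvate into lactate when it is not burned in mitochondria. When oxygen is low, prolyl hydroxylases stop marking the HIF alpha subunits for destruction, and HIF then binds short DNA elements near genes of glucose uptake, glycolysis, pH control, mitophagy and blood vessel growth. In the intestine the epithelium lies along a steep oxygen gradient and proliferating crypt cells are glycolytic. CDK8 is known as a coactivator partner of HIF1A in cultured tumour cells.

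The core of the HIF response element reads ACGTG or GCGTG on either strand. The 250 bases before each start site were searched for these letters in the promoter table of RefSeq (GRCm38.p6), in which 34 of the 38 genes were matched, with 49 start sites. At least 1 match was found in 79.6% of these 49 windows and in 38.6% of all 32851 windows of this length, and the median GC content was 61.6% against 52.4%. ACGTG alone occurred in 51.0% of the windows of these genes and in 16.6% of all windows, and GCGTG in 55.1% and 28.2%. The letters ACGTG also lie within the E-box CACGTG, which was found in 10.2% and 6.02% of the windows. A match is a description of the letters and not a binding site. The windows of the 5 genes that were lower after 4-OHT at day 10 in both media are shown as examples. Each runs 5′ to 3′ toward the start site on the strand of the gene, without bases that GENCODE vM21 annotates as exon, and capitals mark the matches on either strand.
Egln3 (chr12:54203875-54204124, minus strand): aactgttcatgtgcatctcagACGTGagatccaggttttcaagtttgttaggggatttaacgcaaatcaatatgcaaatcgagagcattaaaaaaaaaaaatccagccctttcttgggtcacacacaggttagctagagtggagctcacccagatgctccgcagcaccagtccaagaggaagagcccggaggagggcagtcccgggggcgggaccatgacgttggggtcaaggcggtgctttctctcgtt
Hk2 (chr6:82774455-82774704, minus strand): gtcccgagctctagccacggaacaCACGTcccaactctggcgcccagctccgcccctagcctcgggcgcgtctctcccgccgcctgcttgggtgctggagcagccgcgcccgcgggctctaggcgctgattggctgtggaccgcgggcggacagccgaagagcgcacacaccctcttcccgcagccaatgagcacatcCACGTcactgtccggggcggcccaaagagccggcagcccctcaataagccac
Slc2a1 (chr4:119108495-119108710, plus strand): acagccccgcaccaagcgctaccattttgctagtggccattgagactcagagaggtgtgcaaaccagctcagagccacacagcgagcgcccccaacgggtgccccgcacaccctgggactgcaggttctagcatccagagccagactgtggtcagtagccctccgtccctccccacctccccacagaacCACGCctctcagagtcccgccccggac
Pfkfb3 (chr2:11502102-11502340, minus strand): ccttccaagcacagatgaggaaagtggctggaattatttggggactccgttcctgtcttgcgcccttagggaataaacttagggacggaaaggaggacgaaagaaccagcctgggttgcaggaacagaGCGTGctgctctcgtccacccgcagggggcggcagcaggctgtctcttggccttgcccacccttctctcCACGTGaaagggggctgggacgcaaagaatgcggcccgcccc
Ero1l, listed by RefSeq as Ero1a (chr14:45318573-45318702, minus strand): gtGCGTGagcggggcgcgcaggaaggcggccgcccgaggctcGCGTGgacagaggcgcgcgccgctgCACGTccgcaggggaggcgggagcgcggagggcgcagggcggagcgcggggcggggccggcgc
Among these printed windows, Pfkfb3 held the E-box form, and the window shown is that of 1 of its 2 start sites, the printable window of the other holding 0 matches.

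Levels are given in CPM, counts of a gene scaled to a common library size with TMM factors, computed within each table. In the EtOH organoids at day 7, the highest levels per kilobase of exon were those of Aldoa (975 CPM per kilobase), Ldha (924), Pkm (689) and Tpi1 (555), the aldolase, lactate dehydrogenase, pyruvate kinase and triose phosphate isomerase of the pathway. Among the genes of the hypoxia response, Ndrg1 stood highest at 249 CPM per kilobase, and the prolyl hydroxylase Egln3 followed at 147. The neuronal isoforms Slc2a3 and Eno2 had at most 3 and 8 counts in any organoid library. In 7 of the 38 genes (Gapdh, Pgk1, Pgam1, Eno1, Pkm, Bnip3 and Bnip3l) over 20% of the 50-base words of the exons also occur in other annotated genes, many of them processed copies. Their counts are uncertain for this reason, and Gapdh, normally abundant, was at 13.9 CPM per kilobase. The 8 epithelial markers Epcam, Vil1, Cdx1, Cdx2, Krt8, Krt18, Krt20 and Cdh1 were present in all 57 libraries, with a sum of at least 5279 CPM. In organoids the 9 immune cell markers summed to at most 1.5 CPM. Counts over whole genes do not check the deletions: Cdk8 averaged 55.7 ± 1.63 CPM (SD, n = 3) with EtOH and 55.7 ± 2.14 with 4-OHT at day 10, and reads inside and outside the deleted part cannot be told apart in them.

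A gene was called where the adjusted p of edgeR was under 0.05 and the fold change over 1.5. Log2 fold changes are given with their SE, and adjusted p-values are those of edgeR over all genes tested. In 12 comparisons of genotype or treatment, 23 of the 38 genes were called at least once, beside 51.4% of all 17863 genes tested in at least 1 of these comparisons. The heat map of fold changes sets these calls side by side, and day 10 after 4-OHT held the most lower calls among the comparisons shown.

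**Figure D1:**
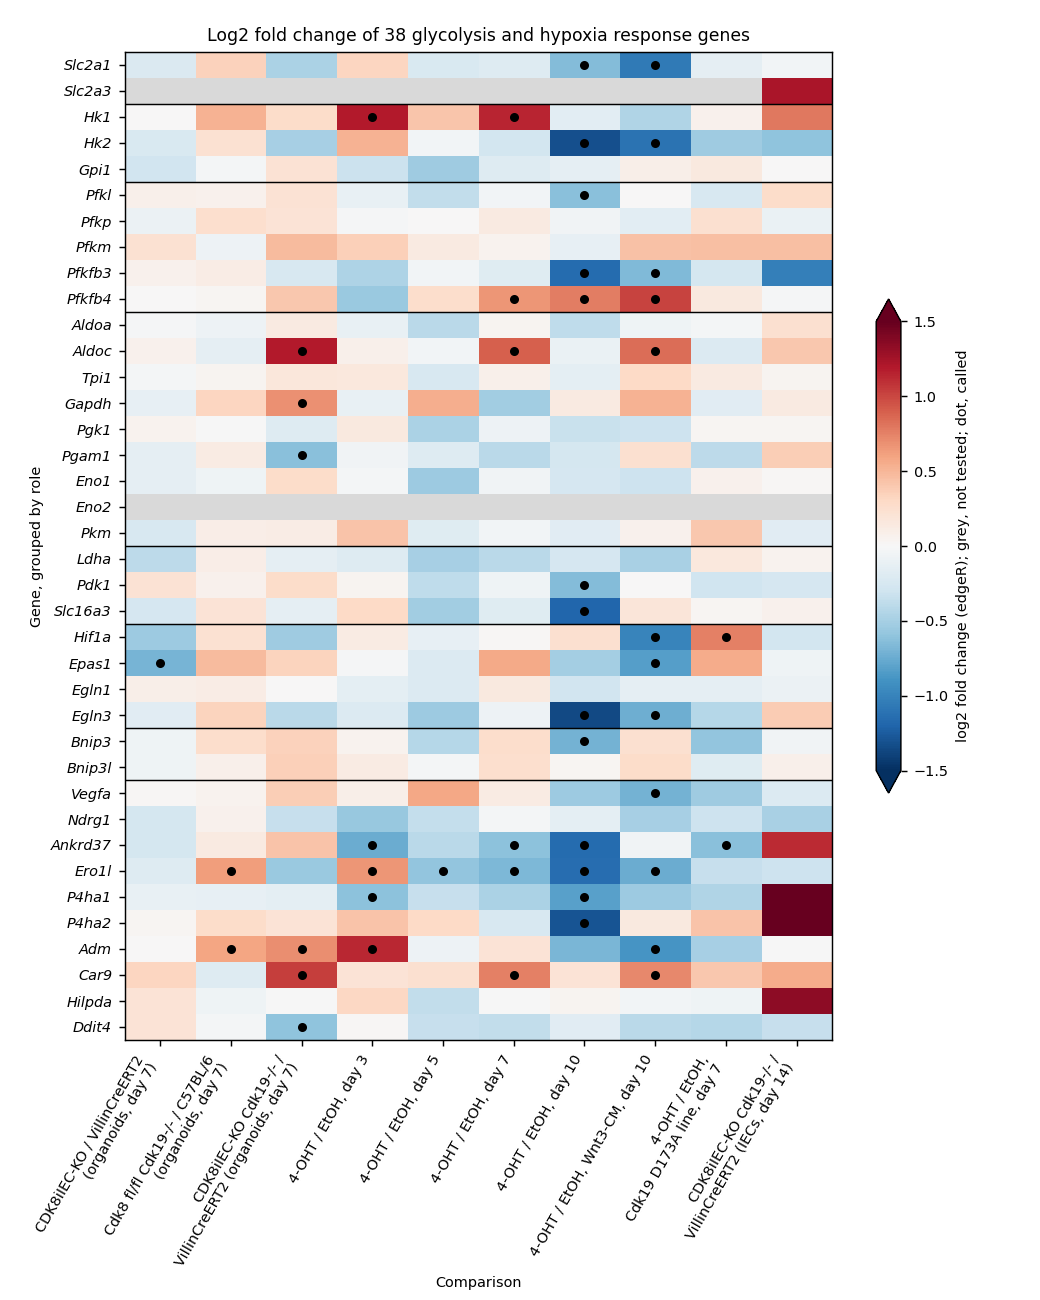
Log2 fold change (color, edgeR) of the 38 genes, grouped by role, in 10 comparisons; dots mark genes called (adjusted p under 0.05 and fold change over 1.5) and grey marks genes not tested. The column of 4-OHT against EtOH at day 10 holds 12 lower calls and 1 higher call, and the IEC column holds none.

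The first question was how these genes changed in the days after CDK8 was removed from Cdk19-/- organoids. At day 3, 3 genes were higher and 2 lower after 4-OHT. Of all 15447 genes tested in the time course, 6.42% were called higher and 5.95% lower at this day, and the median log2 fold change was 0.05 in the 36 genes and -0.02 in all genes.

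Hk1, the hexokinase of most resting tissues, was at 104, 103 and 104 CPM with EtOH and at 223, 260 and 224 CPM with 4-OHT at day 3. It rose 2.27-fold (log2 1.19 ± 0.07, adjusted p = 3.39e-13), and the groups did not overlap. Adm, which encodes the vasodilator peptide adrenomedullin, was at 11.4, 12 and 12.2 CPM with EtOH and at 25.6, 28.0 and 24.3 CPM with 4-OHT. It rose 2.18-fold (log2 1.13 ± 0.17, adjusted p = 5.29e-06). Ero1l, an oxidase of disulfide formation in the endoplasmic reticulum, was at 327, 320 and 348 CPM with EtOH and at 470, 585 and 513 CPM with 4-OHT. Its rise of 1.58-fold (log2 0.66 ± 0.11, adjusted p = 7.77e-05) was 1.48-fold without 4-OHT replicate 2, under the cutoff. Ankrd37, an ankyrin repeat gene induced by HIF, fell from 29.7, 27.8 and 25.5 CPM to 15.7, 17.7 and 16.3 CPM (log2 -0.74 ± 0.11, adjusted p = 2.43e-06). P4ha1, a collagen prolyl hydroxylase, fell from 61.8, 57.7 and 57.5 CPM to 37.9, 40.4 and 37.5 CPM (log2 -0.61 ± 0.07, adjusted p = 7.72e-08), and its fold passed to 0.674 without EtOH replicate 1 and to 0.669 without 4-OHT replicate 3, short of the cutoff. For none of these 5 genes did the arms overlap. Ndrg1, a stress-responsive gene, was at 1238 to 1438 CPM with EtOH and at 837 to 988 CPM with 4-OHT, with a log2 fold change of -0.57 ± 0.08 that stayed within 1.5-fold. The glucose transporter Slc2a1 (0.32 ± 0.07) and the inducible hexokinase Hk2 (0.52 ± 0.13) had positive log2 fold changes and Ldha (-0.19 ± 0.07) a negative one, all within the cutoff. Hif1a (0.12 ± 0.12), Egln3 (-0.20 ± 0.09), Pgk1 (0.15 ± 0.09) and the mitophagy receptor Bnip3 (0.05 ± 0.12) had adjusted p-values over the threshold.

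Outside the 38 genes, 2 of 27 other tested genes of glycolysis, pyruvate and lactate were higher and 7 lower at day 3, among them the transporters Slc2a2 (log2 -2.54 ± 0.13), Slc2a5 (-1.84 ± 0.32) and Slc5a1 (-1.20 ± 0.19). Of 8 gluconeogenesis genes, 5 were lower, such as G6pc (-2.65 ± 0.42). These are genes of absorptive enterocytes, and 7 of 9 enterocyte markers were lower at this day, their sum running from 6208 to 6758 CPM with EtOH and from 2669 to 3162 CPM with 4-OHT. In the same libraries the stem cell sum was 2384 to 2407 CPM with EtOH and 2960 to 3059 CPM with 4-OHT, with 2 of 8 markers higher, and the proliferation sum 813 to 888 and 958 to 1025 CPM, with 0 of 7 called. The tuft cell marker Trpm5 (-1.02 ± 0.18), the goblet cell marker Zg16 (-1.12 ± 0.13) and the epithelial marker Cdx1 (-0.91 ± 0.06) were lower. The Paneth cell marker Pla2g2a was higher (0.88 ± 0.12). The part of cell type makeup in these differences was not tested, and in bulk libraries fewer cells of a type and less RNA per cell cannot be told apart.

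At day 5 the single call was Ero1l. It was at 484, 497 and 632 CPM with EtOH and at 337, 350 and 383 CPM with 4-OHT, a fall to 0.664-fold (log2 -0.59 ± 0.11, adjusted p = 2.74e-04). The count itself moved with single libraries, to 3, 2 and 4 genes without EtOH replicate 1, 2 or 3. Without EtOH replicate 3 the fold of Ero1l was 0.722 and without 4-OHT replicate 1 it was 0.674, both short of the cutoff. Of all genes tested, 8.58% were called higher and 4.62% lower at day 5, beside 0 and 1 of the 36 genes. Of the 36 log2 fold changes 28 were negative, with a median of -0.22 against 0.00 over all genes. In the same libraries 7 of 7 Paneth cell, 5 of 7 proliferation, 4 of 8 stem cell and 3 of 3 tested tuft cell markers were lower, 2 of 9 enterocyte markers were higher and 2 lower, and the proliferation sum was 863 to 1025 CPM with EtOH and 511 to 647 CPM with 4-OHT. Their part was not tested. Ldha was at 2709, 3139 and 2856 CPM with EtOH and at 1931, 1983 and 2228 CPM with 4-OHT (log2 -0.50 ± 0.07). Egln3 (-0.54 ± 0.09), Pgk1 (-0.47 ± 0.09), Bnip3 (-0.43 ± 0.12), Ndrg1 (-0.36 ± 0.08) and Slc2a1 (-0.23 ± 0.07) were also lower within 1.5-fold. For Hk2 (-0.04 ± 0.13) and Hif1a (-0.12 ± 0.12) the arms overlapped. Other hypoxia response genes outside the 38 numbered 0 higher and 2 lower of 23 tested, with Hmox1 at -0.88 ± 0.13 and Mif at -0.62 ± 0.13, and Slc2a2 was again lower (-2.53 ± 0.12).

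At day 7, 4 genes were higher and 2 lower after 4-OHT, where 9.0% of all genes were called higher and 9.25% lower. Hk1 was at 120, 128 and 116 CPM with EtOH and at 241, 279 and 281 CPM with 4-OHT, a rise of 2.20-fold (log2 1.14 ± 0.07, adjusted p = 7.00e-13). Aldoc, a brain-type aldolase, was at 120, 117 and 125 CPM with EtOH and at 211, 245 and 221 CPM with 4-OHT (log2 0.90 ± 0.10, adjusted p = 5.32e-08). Car9, a membrane carbonic anhydrase that serves pH control and is a classical HIF1 target, was at 261, 270 and 260 CPM with EtOH and at 440, 460 and 442 CPM with 4-OHT (log2 0.76 ± 0.08, adjusted p = 1.13e-08). For all 3 genes the arms were well separated. Pfkfb4, an enzyme that sets the level of fructose 2,6-bisphosphate, rose from 63.0, 65.1 and 57.1 CPM to 106, 97.8 and 89.5 CPM (log2 0.66 ± 0.11, adjusted p = 1.27e-05). Ankrd37 fell from 27.0, 28.1 and 25.1 CPM to 16.0, 17.1 and 19.2 CPM (log2 -0.62 ± 0.11, adjusted p = 2.21e-05). Ero1l fell from 608, 648 and 609 CPM to 321, 406 and 447 CPM (log2 -0.67 ± 0.11, adjusted p = 3.90e-05). Without 4-OHT replicate 1 the folds of Ankrd37 and Ero1l were 0.674 and 0.683, short of the cutoff. Ldha had a lower value within 1.5-fold (-0.40 ± 0.07, adjusted p = 3.99e-05), and the arms of Slc2a1 overlapped (-0.19 ± 0.07, adjusted p = 0.0393). Hif1a (0.02 ± 0.12), Egln3 (-0.08 ± 0.09), Hk2 (-0.28 ± 0.13), Pgk1 (-0.08 ± 0.09), Bnip3 (0.26 ± 0.12) and Ndrg1 (-0.03 ± 0.08) had adjusted p-values over the threshold. At this day 6 of 7 proliferation markers and 6 of 8 stem cell markers were lower, and the proliferation sum was 894 to 1070 CPM with EtOH and 454 to 665 CPM with 4-OHT. All 7 Paneth cell markers were lower as well, with a sum of 4913 to 5970 CPM with EtOH and 1833 to 2046 CPM with 4-OHT, and so were 3 of 3 tested tuft cell markers and 1 of 7 goblet cell markers, while 2 of 9 enterocyte markers were higher. The mesenchyme sum was 1.27 to 1.89 CPM with 4-OHT, and 1 EtOH library was at 42.8 CPM, against 1.36 CPM in the lowest. The part of these markers in the changes was not tested. Of the other glycolysis genes 2 of 27 were higher and 3 lower, of the gluconeogenesis genes 1 of 8 was higher and 2 lower, and of the other hypoxia response genes 2 of 23 were higher and 3 lower, led by the heme oxygenase Hmox1 (-1.51 ± 0.12).

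At day 10 the largest number of these genes was lower after 4-OHT among the 4 days. There 12 of 36 genes were lower and 1 was higher, where 6.92% of all genes were called lower and 8.86% higher. The median log2 fold change was -0.28 in the 36 genes and 0.02 in all genes, and 30 of the 36 were negative. The lower genes were spread over the roles: the glucose transporter Slc2a1, the hexokinase Hk2, the phosphofructokinase genes Pfkl and Pfkfb3, the pyruvate and lactate genes Pdk1 and Slc16a3, the oxygen sensor Egln3, the mitophagy receptor Bnip3, and Ankrd37, Ero1l, P4ha1 and P4ha2. Of the 8 tested enzymes of the lower part of glycolysis, 0 were called, with a median of -0.21.

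Egln3, the prolyl hydroxylase that HIF itself induces, was at 193, 236 and 261 CPM with EtOH and at 88.5, 91.7 and 90.4 CPM with 4-OHT. It fell to 0.392-fold (log2 -1.35 ± 0.09, adjusted p = 2.05e-12), the largest fall among the 36 genes. Hk2, the hexokinase of proliferating cells, was at 46.7, 45.4 and 51.5 CPM with EtOH and at 20.5, 18.1 and 18.8 CPM with 4-OHT (0.400-fold, log2 -1.32 ± 0.14, adjusted p = 6.20e-08). P4ha2, a collagen prolyl hydroxylase, was low in both arms, at 5.18, 5.06 and 7.00 CPM with EtOH and 2.34, 2.53 and 2.12 CPM with 4-OHT (log2 -1.30 ± 0.18, adjusted p = 1.01e-06). In these genes each 4-OHT library lay below each EtOH library, and the 4-OHT libraries were close to each other.

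Slc16a3, the lactate exporter MCT4, was at 85.8, 83.8 and 93.4 CPM with EtOH and at 35.3, 46.4 and 34.0 CPM with 4-OHT (0.440-fold, log2 -1.19 ± 0.13, adjusted p = 1.10e-07). Pfkfb3, which raises fructose 2,6-bisphosphate and with it glycolytic flux, was at 27.1, 26.2 and 33.8 CPM with EtOH and at 13.2, 12.6 and 13.6 CPM with 4-OHT (log2 -1.15 ± 0.09, adjusted p = 3.35e-11). Pfkfb4, of the same enzyme family, went the other way, with 50.6 to 57.5 CPM with EtOH and 88.7 to 96.7 CPM with 4-OHT (log2 0.77 ± 0.11, adjusted p = 1.91e-06). Ankrd37 was at 9.25, 11.2 and 12.7 CPM with EtOH and at 4.69, 5.75 and 4.44 CPM with 4-OHT (log2 -1.15 ± 0.13, adjusted p = 2.83e-08). Ero1l was at 383, 445 and 505 CPM with EtOH and at 199, 204 and 203 CPM with 4-OHT (log2 -1.14 ± 0.11, adjusted p = 3.44e-08). P4ha1 was at 43.0, 42.8 and 47.6 CPM with EtOH and at 24.6, 26.8 and 24.4 CPM with 4-OHT (log2 -0.82 ± 0.08, adjusted p = 5.59e-10). For none of these genes did the arms overlap.

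The other 4 lower genes had smaller falls, from -0.63 ± 0.06 for Pfkl to -0.71 ± 0.12 for Bnip3 on the log2 scale. Slc2a1 was at 142 to 168 CPM with EtOH and at 91.6 to 103 CPM with 4-OHT (-0.65 ± 0.08). Pdk1, a kinase that inhibits pyruvate dehydrogenase, was at 245 to 298 CPM and 154 to 197 CPM (-0.65 ± 0.08). These 4 calls rested on single libraries at the fold cutoff: without EtOH replicate 3 the folds of Slc2a1 and Pfkl were 0.669, and without 4-OHT replicate 1 those of Pdk1 and Bnip3 were 0.678 and 0.683, with adjusted p-values of at most 1.56e-04. Hif1a itself was at 130, 99.3 and 109 CPM with EtOH and at 152, 125 and 122 CPM with 4-OHT, with overlapping arms (0.24 ± 0.12, adjusted p = 0.117). Ldha (-0.25 ± 0.07), Pgk1 (-0.33 ± 0.09) and Ndrg1 (-0.15 ± 0.08, adjusted p = 0.140) stayed within 1.5-fold.

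**Figure D2:**
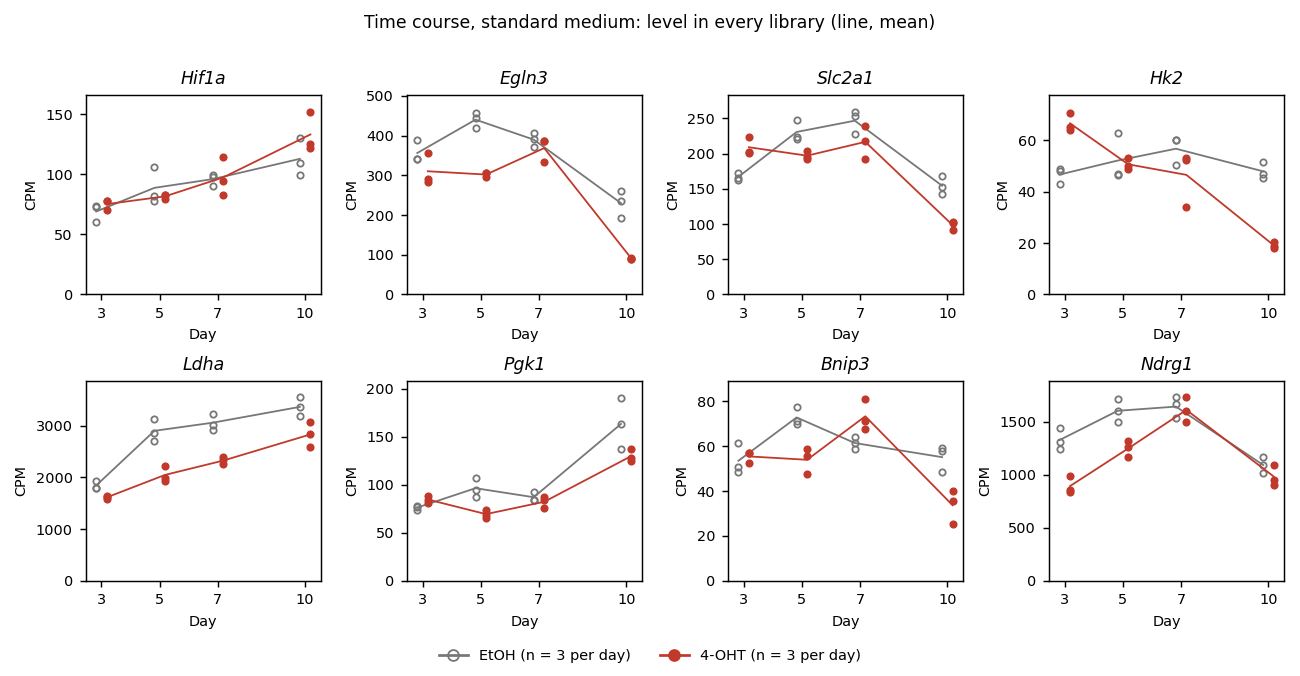
Level (CPM, linear axis from 0) of 8 genes in every library of the time course in standard medium, by day; open grey circles are EtOH, filled red circles are 4-OHT, and lines join the means of 3 libraries. At day 10 Egln3 was at 88.5 to 91.7 CPM with 4-OHT and at 193 to 261 CPM with EtOH, while the arms of Hif1a overlapped.

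The difference in response between days 7 and 10 was tested in the same fit. The response to 4-OHT was lower at day 10 than at day 7 for 12 of the 36 genes and higher for 0, where 3.42% of all genes were called lower and 2.98% higher. The median difference was -0.43 on the log2 scale, against 0.04 over all genes. Without 1 library at a time, 10 to 14 genes were called. Cell type markers differed as well between these days. The response was lower for the Paneth cell marker Ang4 (-0.92 ± 0.17), the stem cell marker Lgr5 (-0.66 ± 0.19) and the enterocyte marker Anpep (-0.65 ± 0.12). It was higher for the stem cell marker Olfm4 (0.70 ± 0.23) and the enterocyte marker Fabp2 (0.72 ± 0.12), and the part of such markers was not tested. Between days 3 and 5 the response became lower for 7 genes and higher for 2 (9.01% and 11.2% of all genes), and between days 5 and 7 it became higher for 4 and lower for 1 (3.80% and 5.01%). Neighbouring days share a group of libraries in each pair of these differences, so that they are not independent of each other.

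The hypoxia response genes outside the 38 gave 0 higher and 6 lower of 23 tested at day 10, with the lipoprotein receptor Vldlr (-1.09 ± 0.12), the adenylate kinase Ak4 (-0.97 ± 0.09) and Hmox1 (-0.93 ± 0.13) among the lower genes. Of the 17 genes of oxygen sensing and the HIF pathway, Cited2, a competitor of HIF for its coactivators, was higher (0.69 ± 0.17) and Hif3a lower (-0.98 ± 0.24). The other glycolysis, pyruvate and lactate genes gave 3 higher and 1 lower of 27, among them both subunits of the mitochondrial pyruvate carrier, Mpc1 (0.72 ± 0.14) and Mpc2 (0.63 ± 0.09). Of 8 gluconeogenesis genes, Fbp1 (-1.94 ± 0.24) and Pck2 (-1.06 ± 0.14) were lower. Within the kinase module of Mediator, to which CDK8 and CDK19 belong, Med13l was lower (-0.66 ± 0.08) among 6 genes tested. Markers moved in the same libraries: the stem cell sum was 3925 to 4264 CPM with EtOH and 2198 to 2391 CPM with 4-OHT, the proliferation sum 1198 to 1266 and 742 to 786 CPM, and the Paneth cell sum 8149 to 8347 and 2136 to 2533 CPM, with 5 of 8, 3 of 7 and 7 of 7 of their markers lower. Of the tuft cell markers 3 of 3 tested and of the goblet cell markers 2 of 7 were lower, and 4 of 9 enterocyte markers were higher. Their part in the result was not tested.

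The EtOH arm showed how the genes moved without 4-OHT. Between days 3 and 5, 3 genes rose and 1 fell, where 2.82% of all genes were called higher and 9.14% lower. The lactate exporter Slc16a3 was at 109, 87.3 and 94.6 CPM at day 3 and at 174, 238 and 171 CPM at day 5 (2.00-fold, log2 1.00 ± 0.12, adjusted p = 2.30e-06), and Ldha went from 1936, 1802 and 1795 CPM to 2709, 3139 and 2856 CPM (log2 0.65 ± 0.07, adjusted p = 9.93e-08). Ero1l was the third gene to rise (0.70 ± 0.11, 1.47-fold without EtOH replicate 3 of day 5), and Gapdh, whose counts are uncertain, the one to fall (-0.67 ± 0.18). In the same comparison 4 of 9 enterocyte markers were higher, with a sum of 6208 to 6758 CPM at day 3 and 7676 to 11269 CPM at day 5, as were 2 of 7 Paneth cell markers and 1 of 7 goblet cell markers, and 1 of 3 tested tuft cell markers was lower, and the part of these markers was not tested. Between days 5 and 7, 0 genes were called in either direction by edgeR, with 11 at an unadjusted p under 0.05 beside 2701 of all genes tested, and by the full rule 0.285% of all genes were called higher and 0.285% lower. DESeq2 and limma-voom each called 1 gene.

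Between days 7 and 10 of EtOH, 3 genes rose and 12 fell, where 9.39% of all genes were called higher and 13.9% lower. Adm went from 10.6, 12.6 and 11 CPM to 1.70, 2.48 and 2.23 CPM (log2 -2.42 ± 0.22, adjusted p = 5.69e-10). The angiogenic factor Vegfa went from 151, 180 and 136 CPM to 54.6, 62.8 and 67.7 CPM (log2 -1.34 ± 0.08, adjusted p = 6.58e-14), and Hk1 from 120, 128 and 116 CPM to 44.7, 46.8 and 54.6 CPM (log2 -1.32 ± 0.08, adjusted p = 5.10e-14). Falls of Pfkfb3 (-1.28 ± 0.08), Ankrd37 (-1.28 ± 0.11), P4ha2 (-1.35 ± 0.14), Slc16a3 (-1.14 ± 0.12), Egln3 (-0.76 ± 0.09), Slc2a1 (-0.68 ± 0.08) and Gpi1 (-0.94 ± 0.09) belonged to the same group. Ndrg1 (-0.59 ± 0.08) was at the cutoff, with folds of 0.678 without EtOH replicate 1 of day 7 and 0.688 without EtOH replicate 2 of day 10. Of the 4 calls left, 3 were for genes that share sequence with other genes, namely Gapdh (-2.55 ± 0.20), Pgk1 (0.91 ± 0.09) and Pgam1 (1.09 ± 0.08), and the other was Hilpda (0.79 ± 0.18), a lipid droplet gene of the hypoxia response. In the same comparison 3 of 3 tested tuft cell markers were lower, 3 of 9 enterocyte markers were lower and 1 higher, 3 of 8 stem cell markers were higher and 1 lower, 1 of 7 Paneth cell markers was higher and 1 lower, and 2 of 7 proliferation markers were higher, and 1 EtOH library of day 7 stood apart in the mesenchyme sum, at 42.8 CPM against a median of 1.37 CPM. Their part was not tested. The columns of days 3 and 5, of day 7 and of day 10 are named in 3 different ways, and whether they were prepared apart is not given in the sources used here, so that day and preparation cannot be told apart in comparisons across days. EtOH and 4-OHT were compared within a day.

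The second question was whether the changes at day 10 also occurred in Wnt3-CM, which supplies the Wnt signal that Paneth cells otherwise provide. In Wnt3-CM 9 of 36 genes were lower and 3 higher after 4-OHT, where 7.42% of all genes were called lower and 9.45% higher. The median log2 fold change was -0.11 against 0.00 over all genes. The 5 genes Slc2a1, Hk2, Pfkfb3, Egln3 and Ero1l were lower in both media, which is 41.7% of the 12 genes lower in standard medium and 55.6% of the 9 lower in Wnt3-CM. Over all genes, 359 were lower in both media, 33.6% of the 1069 lower in standard medium and 35.2% of the 1020 lower in Wnt3-CM.

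Hk2 was at 140, 141 and 127 CPM with EtOH and at 64.3, 67.8 and 56.3 CPM with 4-OHT in Wnt3-CM (0.462-fold, log2 -1.11 ± 0.08, adjusted p = 9.19e-11). Slc2a1, the glucose transporter GLUT1, was at 348, 393 and 393 CPM with EtOH and at 191, 180 and 174 CPM with 4-OHT (0.480-fold, log2 -1.06 ± 0.07, adjusted p = 5.55e-11). The arms of both genes lay far apart, as they did for Ero1l, at 631, 730 and 722 CPM against 406, 431 and 400 CPM (log2 -0.75 ± 0.07, adjusted p = 1.99e-08). The HIF alpha subunits were lower here. Hif1a was at 304, 259 and 243 CPM with EtOH and at 149, 132 and 124 CPM with 4-OHT (0.503-fold, log2 -0.99 ± 0.08, adjusted p = 2.32e-08), and Epas1, which encodes HIF2 alpha, at 44.2, 44.6 and 44.9 CPM and 23.7, 27.4 and 24.3 CPM (log2 -0.83 ± 0.08, adjusted p = 1.82e-08). Adm was low in both arms, at 3.89, 4.46 and 5.74 CPM and 2.68, 2.43 and 2.52 CPM (log2 -0.88 ± 0.18, adjusted p = 4.68e-04). Egln3 (-0.73 ± 0.08), Vegfa (-0.71 ± 0.07) and Pfkfb3 (-0.66 ± 0.08) made up the rest of the lower genes.

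Among the higher genes, Pfkfb4 was at 45.3, 41.3 and 39.1 CPM with EtOH and at 90.4, 89.4 and 73.8 CPM with 4-OHT (2.02-fold, log2 1.01 ± 0.08, adjusted p = 3.73e-09). Aldoc was at 68.0, 71.9 and 71.5 CPM with EtOH and at 131, 128 and 119 CPM with 4-OHT (log2 0.84 ± 0.07, adjusted p = 1.11e-09). Car9 followed with 207 to 231 CPM and 346 to 385 CPM (log2 0.72 ± 0.07). Ldha (-0.49 ± 0.09), Pgk1 (-0.31 ± 0.08), Ndrg1 (-0.50 ± 0.07) and Bnip3 (0.24 ± 0.07) were within 1.5-fold. Of the genes outside the 38, 0 of 22 other hypoxia response genes were higher and 5 lower. The gluconeogenesis genes gave 2 higher and 2 lower of 8, Pcx (-1.26 ± 0.07) and Pck2 (-0.89 ± 0.07) among the lower, and Slc2a2 was lower (-1.87 ± 0.09). The stem cell sum was 1776 to 1919 CPM with EtOH and 1769 to 2010 CPM with 4-OHT and the proliferation sum 730 to 748 and 753 to 862 CPM, while the Paneth cell sum went from 6860 to 7588 CPM to 1891 to 2324 CPM. Single markers moved as well: of the stem cell markers Ascl2 (-0.83 ± 0.15) and Msi1 (-0.82 ± 0.12) were lower, and of the epithelial markers Krt18 (-1.04 ± 0.07) and Cdh1 (-0.61 ± 0.07). The proliferation marker Ccnb1 was higher (0.71 ± 0.08), and the enteroendocrine marker Neurog3 was lower (-1.45 ± 0.18). The epithelial sum was 10553 to 10999 CPM with EtOH and 8002 to 8675 CPM with 4-OHT, all 5 tested tuft cell and 4 of 7 goblet cell markers were lower, and 6 of 9 enterocyte markers were higher. The part of these markers in the result was not tested.

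The responses in the 2 media were then tested against each other in a joint fit. The response was higher in Wnt3-CM for 8 genes and lower for 1, where 7.11% of all 14337 genes were called higher and 6.21% lower. The 8 genes were P4ha2 (1.45 ± 0.23), Slc16a3 (1.36 ± 0.16), Ankrd37 (1.10 ± 0.19), Bnip3 (0.95 ± 0.17), Aldoc (0.93 ± 0.11), Pdk1 (0.66 ± 0.12), Pfkl (0.63 ± 0.10) and Egln3 (0.62 ± 0.13), on the log2 scale. All but Aldoc had fallen in standard medium and, apart from Egln3, were not called in Wnt3-CM. For Egln3 the difference was within 1.5-fold without EtOH replicate 3 of standard medium or without EtOH replicate 1 of Wnt3-CM, and so it was for Pfkl (1.49-fold) without that replicate of standard medium and for Pdk1 (1.48-fold) without its 4-OHT replicate 1. Hif1a was the 1 gene with a lower response in Wnt3-CM (-1.23 ± 0.17, adjusted p = 7.01e-05). The libraries of Wnt3-CM are in another table than those of standard medium, so that medium and preparation cannot be told apart. The tables of the 2 media were normalized separately, and levels are compared only within a medium.

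**Figure D3:**
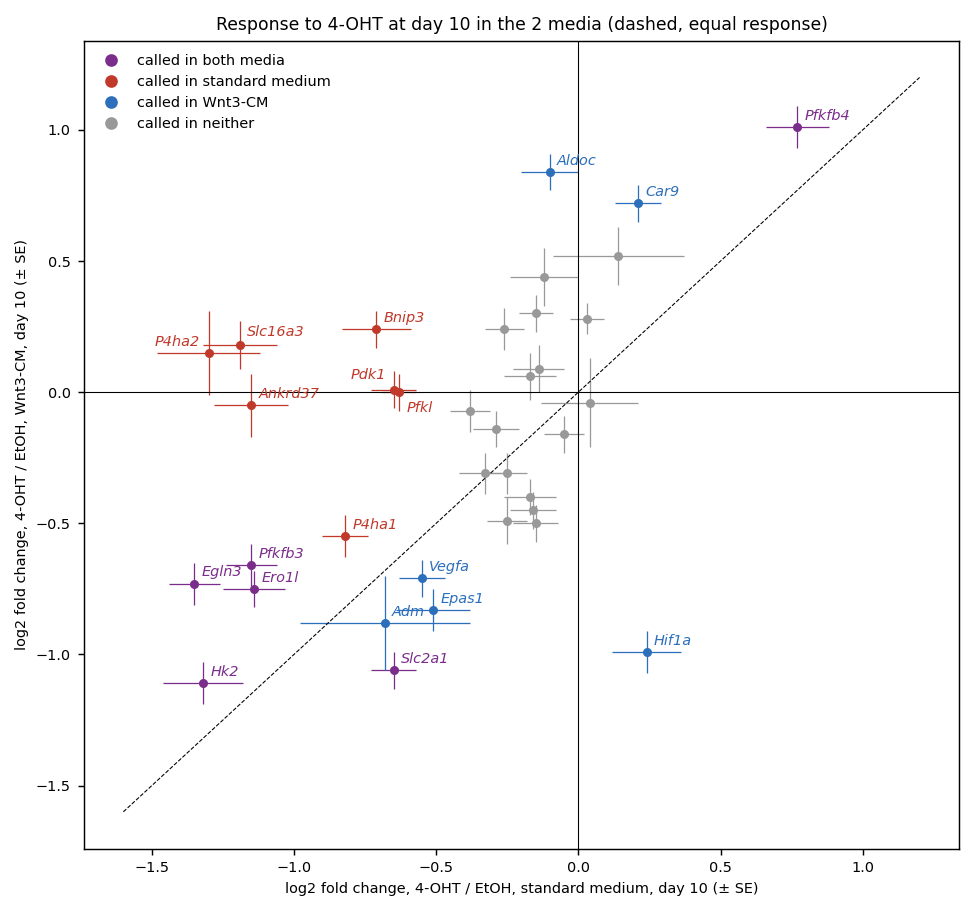
Log2 fold change after 4-OHT at day 10 in standard medium (x axis) and in Wnt3-CM (y axis) for the 36 tested genes, with SE as bars; color gives the medium in which a gene was called and the dashed line marks equal response. Egln3, Hk2, Ero1l, Pfkfb3 and Slc2a1 lie below 0 on both axes, P4ha2 and Slc16a3 near 0 on the y axis alone, and Hif1a at 0.24 and -0.99.

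The third question was which of the kinases had to be lost. In organoid lines at day 7, CDK8iIEC-KO/Cdk19-/- had 4 genes higher and 2 lower than VillinCreERT2, where 11.5% of all 15125 genes were called higher and 7.95% lower. Aldoc was at 66.5, 72.9 and 70.4 CPM in VillinCreERT2 and at 161, 169 and 149 CPM in the double knockout (2.28-fold, log2 1.19 ± 0.07, adjusted p = 2.27e-13). Car9 was at 234, 213 and 266 CPM and 503, 512 and 456 CPM (2.06-fold, log2 1.04 ± 0.07, adjusted p = 1.25e-12). Adm was at 12.3, 11.5 and 10.5 CPM and 19.5, 19.6 and 16.6 CPM (log2 0.70 ± 0.11, adjusted p = 1.36e-05). These groups did not overlap. Gapdh, with uncertain counts, was at 28.3, 26.6 and 27.6 CPM and 46.2, 47.9 and 38.8 CPM (log2 0.69 ± 0.08, adjusted p = 3.13e-08). Pgam1, a phosphoglycerate mutase that also shares sequence with other genes, was at 92.6, 92.8 and 98.8 CPM and 62.3, 61.4 and 60.1 CPM (log2 -0.63 ± 0.06, adjusted p = 9.56e-10). Ddit4, a stress-induced inhibitor of mTORC1, was at 94.5, 93.1 and 92.9 CPM and 60.1, 68.1 and 57.3 CPM (log2 -0.60 ± 0.06, adjusted p = 2.03e-08). Its fold was 0.669 without double knockout replicate 1 and 0.693 without replicate 3, short of the cutoff.

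The 36 genes had a median log2 fold change of 0.18 in this comparison, against 0.00 over all genes, with 21 positive and 15 negative values. Of the genes named throughout, some had lower values within 1.5-fold. They were Hif1a (-0.53 ± 0.07), Hk2 (-0.50 ± 0.09), Slc2a1 (-0.47 ± 0.06), Egln3 (-0.41 ± 0.08), Ndrg1 (-0.34 ± 0.08) and Pgk1 (-0.19 ± 0.06). Bnip3 had a higher value (0.34 ± 0.08), and Ldha was over the threshold (-0.13 ± 0.06, adjusted p = 0.0886). The other hypoxia response genes gave 3 higher and 5 lower of 25, among them Nos2 (-1.62 ± 0.20) and Hmox1 (-1.29 ± 0.09). Stem cell markers were lower in 7 of 8 and Paneth cell markers in 6 of 7 cases, with stem cell sums of 1775 to 2107 CPM in VillinCreERT2 and 781 to 1050 CPM in the double knockout. All 5 tested tuft cell, 5 of 7 enteroendocrine and 3 of 7 goblet cell markers were lower too, and 2 of 9 enterocyte markers were higher. The part of these markers was not tested.

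The control lines differed from each other as well. Between C57BL/6 and VillinCreERT2 organoids, both with intact kinases and both given 4-OHT, 3 genes were higher and 7 lower in C57BL/6, where 15.5% of all genes were called higher and 10.9% lower. Hif1a was at 108, 101 and 99.7 CPM in C57BL/6 and at 184, 199 and 207 CPM in VillinCreERT2 (log2 -0.94 ± 0.07, adjusted p = 8.90e-12), and Epas1 at 27.0, 23.9 and 21.5 CPM and 43.0, 47.6 and 45.6 CPM (log2 -0.91 ± 0.09, adjusted p = 1.13e-09). Aldoc was at 149, 160 and 160 CPM in C57BL/6 (log2 1.16 ± 0.07, adjusted p = 2.33e-13), within the range of the double knockout. Pgam1 was at 52.2, 56.6 and 53.1 CPM in C57BL/6 (log2 -0.81 ± 0.06) and Slc2a1 at 119, 128 and 118 CPM against 206, 206 and 193 CPM (log2 -0.73 ± 0.06, adjusted p = 1.02e-10). Ero1l was at 513, 469 and 412 CPM against 762, 783 and 720 CPM (log2 -0.70 ± 0.07), and Hk1 at 56.5, 56.1 and 51.2 CPM against 83.9, 93.1 and 80.1 CPM (log2 -0.65 ± 0.08). Car9 was at 354, 378 and 393 CPM in C57BL/6 (log2 0.66 ± 0.07), a fold of 1.49 without VillinCreERT2 replicate 2, and Ankrd37 (0.64 ± 0.08) and Adm (-0.59 ± 0.13) completed the calls. Adm lost its call without C57BL/6 replicate 1 (0.674-fold) or 3 (0.683-fold) and without VillinCreERT2 replicate 1 (0.688-fold). Under upper quartile scaling Hk1 (0.674-fold) and Adm (0.702-fold) were short of the cutoff. Measured against VillinCreERT2 and C57BL/6 averaged together, the double knockout had 5 genes higher and 0 lower. Aldoc (0.61), Car9 (0.72) and Adm (0.99) kept their calls in that setting, and Gapdh (0.48), Pgam1 (-0.22) and Ddit4 (-0.53) were within 1.5-fold. Between the 2 control lines 5 of 7 Paneth cell markers were higher in C57BL/6, with a sum of 4953 to 6149 CPM against 2780 to 2904 CPM. Of the enteroendocrine markers 5 of 7 were higher and 2 lower, 2 of 8 stem cell and 1 of 5 tested tuft cell markers were higher, and 3 of 7 goblet cell, 2 of 9 enterocyte and 2 of 8 epithelial markers were lower. Their part was not tested.

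The 2 single knockouts were set against different control lines, and the numbers of calls were not tested against those of the double knockout. CDK8iIEC-KO organoids had 0 genes higher and 1 lower than VillinCreERT2, where 2.90% of all genes were called higher and 4.34% lower. That gene was Epas1, at 25.9, 31.0 and 26.8 CPM against 43.0, 47.6 and 45.6 CPM (log2 -0.70 ± 0.08, adjusted p = 3.71e-07), and its log2 fold change was -0.25 against both control lines averaged. Without CDK8iIEC-KO replicate 2, or without VillinCreERT2 replicate 1, 2 genes were called. Hif1a was at 131, 143 and 128 CPM (-0.55 ± 0.07), and Ldha at 2935, 2920 and 3073 CPM (-0.39 ± 0.06), each below VillinCreERT2 within 1.5-fold. In this comparison 4 of 9 enterocyte markers were lower, with a sum of 9521 to 11030 CPM against 13792 to 16690 CPM, as were 3 of 7 goblet cell markers, while 1 of 7 Paneth cell and 1 of 8 stem cell markers were higher, and their part was not tested. Cdk8 fl/fl/Cdk19-/- organoids had 2 genes higher and 0 lower than C57BL/6, where 2.86% of all genes were called higher and 2.39% lower. They were Ero1l, at 739, 712 and 712 CPM against 513, 469 and 412 CPM (log2 0.63 ± 0.07, adjusted p = 1.32e-07), and Adm, at 11.3, 12.1 and 10.9 CPM against 7.30, 8.30 and 7.10 CPM (log2 0.59 ± 0.13, adjusted p = 0.00235). Both lay at the cutoff: Ero1l was at 1.47-fold without C57BL/6 replicate 3, and Adm at 1.46-fold to 1.48-fold without C57BL/6 replicate 1 or 3 or Cdk19-/- replicate 2. Here 2 of 8 stem cell and 1 of 7 Paneth cell markers were lower, and 1 of 7 enteroendocrine markers was higher and 1 lower, and their part was not tested.

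Set against Cdk8 fl/fl/Cdk19-/- organoids, which lack CDK19 alone, the double knockout had 2 genes higher and 0 lower, where 6.33% of all genes were called higher and 4.26% lower. Epas1 was at 59.5, 60.8 and 51.3 CPM in the double knockout and at 35.1, 32.5 and 33 CPM in the single knockout (1.71-fold, log2 0.77 ± 0.08, adjusted p = 3.17e-08). Adm was at 19.5, 19.6 and 16.6 CPM and 11.3, 12.1 and 10.9 CPM (1.62-fold, log2 0.70 ± 0.12, adjusted p = 3.43e-05). Adm thus stood above both the VillinCreERT2 and the Cdk19-/- organoids in each of the 3 double knockout libraries. Hk2 (-0.51 ± 0.09), Ndrg1 (-0.44 ± 0.08), Egln3 (-0.43 ± 0.08) and Pgk1 (-0.16 ± 0.06) had lower values within 1.5-fold. For Hif1a (0.17 ± 0.07), Slc2a1 (-0.09 ± 0.06), Ldha (-0.02 ± 0.06) and Bnip3 (-0.17 ± 0.08) the groups overlapped. In the time course at day 7, CDK8 was likewise removed on a Cdk19-/- background, in another line. There the calls were Hk1, Aldoc, Car9, Pfkfb4, Ankrd37 and Ero1l. None of these was called between the organoid lines here, and neither Epas1 nor Adm was called there. All 7 Paneth cell markers were lower in the double knockout, with a sum of 854 to 890 CPM against 3968 to 4354 CPM. Of the other markers 5 of 5 tuft cell, 5 of 7 enteroendocrine and 4 of 8 stem cell genes were lower, and 5 of 9 enterocyte genes were higher and 1 lower. Their part was not tested.

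**Figure D4:**
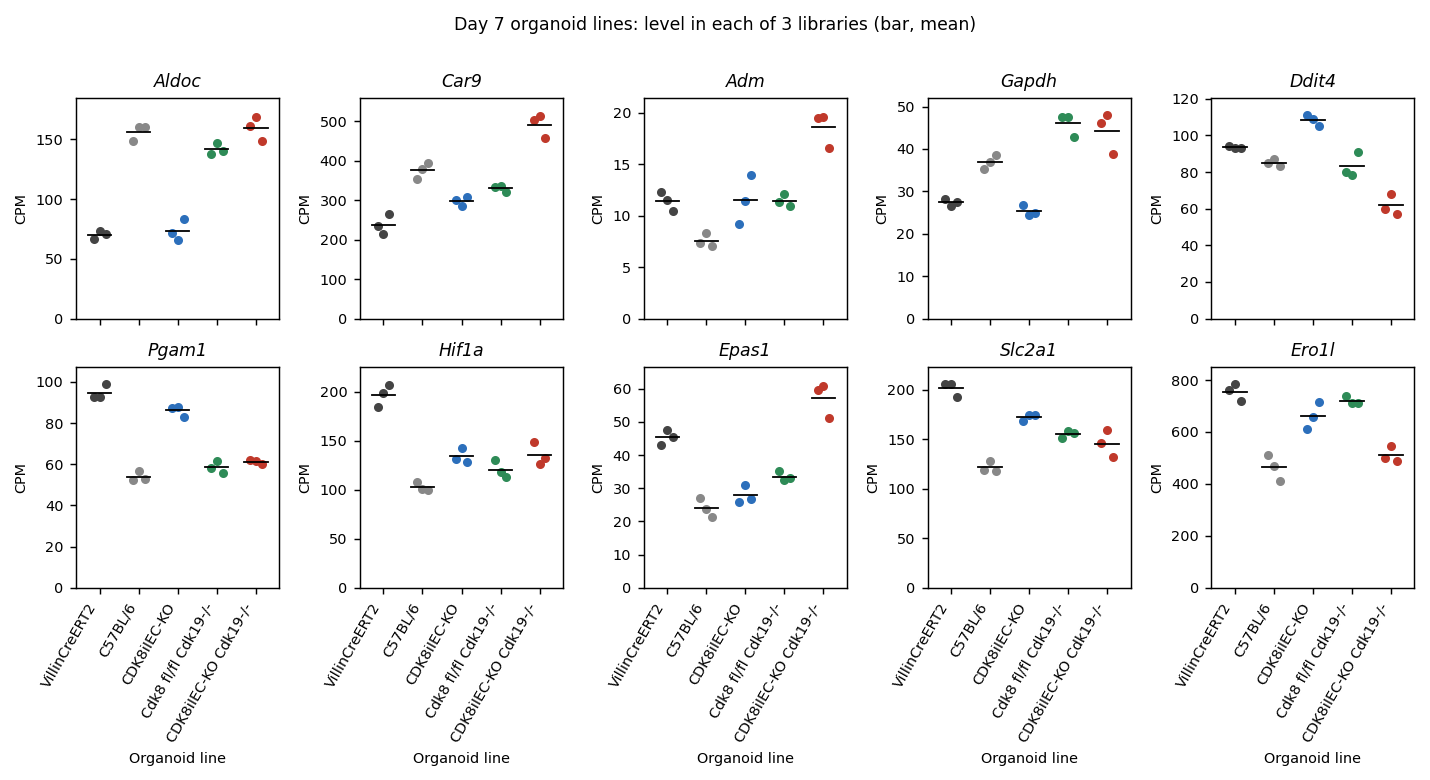
Level (CPM, linear axes from 0) of 10 genes in each of the 3 libraries of the 5 organoid lines at day 7, all given 4-OHT; black bars are means. Aldoc was at 149 to 169 CPM in the double knockout and at 149 to 160 CPM in C57BL/6, and Adm was at 16.6 to 19.6 CPM in the double knockout, above each library of the other 4 lines.

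The next question was whether a kinase-dead CDK19 takes the place of the deleted one. In the Cdk19 D173A/- line at day 7, 1 gene was higher and 1 lower after 4-OHT, where 6.05% of all 15457 genes were called higher and 6.25% lower. Hif1a was at 234, 172 and 171 CPM with EtOH and at 407, 286 and 279 CPM with 4-OHT (1.69-fold, log2 0.75 ± 0.20, adjusted p = 0.0331). Replicate 1 was the highest in each arm. Ankrd37 was at 29.3, 30.7 and 30.6 CPM with EtOH and at 13.9, 20.5 and 24.1 CPM with 4-OHT (0.645-fold, log2 -0.63 ± 0.17, adjusted p = 0.0263). Both calls rested on single libraries. Hif1a had adjusted p = 0.126 without EtOH replicate 2 and 0.115 without EtOH replicate 3, and a fold of 1.47 without 4-OHT replicate 1. Ankrd37 had adjusted p = 0.0749, 0.0701 and 0.0673 without EtOH replicate 2, EtOH replicate 3 or 4-OHT replicate 2, and a fold of 0.737 without 4-OHT replicate 1. Hk2 (-0.53 ± 0.09) and Ndrg1 (-0.31 ± 0.08) had lower values within 1.5-fold, whereas Slc2a1 (-0.14 ± 0.10), Ldha (0.16 ± 0.08), Pgk1 (0.03 ± 0.09), Egln3 (-0.43 ± 0.25) and Bnip3 (-0.59 ± 0.26) had adjusted p-values over the threshold. Other hypoxia response genes gave 3 higher and 3 lower of 24, with Angptl4 (3.93 ± 0.38) and Plod2 (2.02 ± 0.18) among the higher. Of the markers 6 of 7 Paneth cell genes were lower and 1, the lysozyme Lyz1, higher, 5 of 8 stem cell and 6 of 6 tested tuft cell genes were lower, and 5 of 9 enterocyte genes were higher. The enteroendocrine markers gave 4 lower and 1 higher of 7 and the goblet cell markers 2 in each direction of 7, and 1 of 7 proliferation markers was lower. Their part was not tested.

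In the joint fit with the time course at day 7, the response of the D173A line was lower for 3 genes and higher for 0, where 6.25% of all genes were called lower and 4.90% higher. Hk1 (-1.07 ± 0.26, adjusted p = 0.0158) and Aldoc (-1.11 ± 0.25, adjusted p = 0.0106) had risen after 4-OHT in the Cdk19-/- line and were at 62.6 and 104 CPM with EtOH and at 65.6 and 90.1 CPM with 4-OHT, as group means, in the D173A line. Vegfa was the third (-0.66 ± 0.12, adjusted p = 0.00143), a difference within 1.5-fold without EtOH replicate 3 of the time course. Without 1 library at a time, 3 to 6 genes were called, and DESeq2 called 1 higher and 4 lower. Cell type markers differed too. The response was higher for Lyz1 (2.51 ± 0.14), the enterocyte marker Lct (3.28 ± 0.55) and the goblet cell marker Zg16 (1.84 ± 0.16). It was lower for the Paneth cell marker Mmp7 (-1.03 ± 0.15), the enteroendocrine marker Neurog3 (-1.54 ± 0.22) and the stem cell marker Lgr5 (-1.17 ± 0.25). The part of such markers was not tested. The lines come from different animals, and line and allele cannot be told apart.

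In IECs of the mouse the question was whether the same genes change in tissue. No gene of the 37 tested was called by edgeR, with 12 at an unadjusted p under 0.05 beside 3017 of all genes tested, and by the full rule 0.646% of all 15182 genes were called higher and 0.856% lower. DESeq2 called 2 genes, 1 in each direction, and limma-voom 0. The median log2 fold change was 0.03 against 0.00 over all genes. The spread between animals was wide. Hif1a was at 99.6, 81.0 and 95.5 CPM in VillinCreERT2 and at 73.7, 79.1 and 74.5 CPM in CDK8iIEC-KO/Cdk19-/- mice (log2 -0.28 ± 0.10, adjusted p = 0.209). Egln3 was at 115, 95.0 and 79.8 CPM and 164, 92.4 and 122 CPM (0.38 ± 0.23, adjusted p = 0.389), and Slc2a1 at 21.1, 28.4 and 19.7 CPM and 29.9, 19.3 and 18.2 CPM (-0.04 ± 0.23, adjusted p = 0.943). Both overlapped between the groups.

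Hk2 was at 27.5, 22.1 and 29.3 CPM in VillinCreERT2 IECs and at 16.4, 23.3 and 12.4 CPM in the double knockout (-0.60 ± 0.24, adjusted p = 0.228). Ndrg1 was at 94.6, 97.5 and 93.0 CPM and 73.2, 49.0 and 80.7 CPM (-0.49 ± 0.18, adjusted p = 0.199), without overlap. Ldha (0.05 ± 0.14), Pgk1 (0.03 ± 0.14) and Bnip3 (-0.05 ± 0.15) lay close to 0. Of the genes chosen here after their values were seen, P4ha2 had the largest difference, at 0.384, 0.435 and 0.374 CPM in VillinCreERT2 and 2.47, 1.36 and 0.933 CPM in the double knockout (1.98 ± 0.45, adjusted p = 0.0931), and Pfkfb3 was at 69.5, 57.6 and 78.6 CPM and 22.1, 47.7 and 30.5 CPM (-1.03 ± 0.28, adjusted p = 0.134). The IEC libraries also held RNA of other tissue: the 7 mesenchyme markers summed to 12.8 to 883 CPM in VillinCreERT2 and 455 to 966 CPM in the double knockout, and the 9 immune cell markers to 1660 to 2988 CPM and 1822 to 2905 CPM. Of the epithelial lineages, the Paneth cell sum was 3708 to 6080 CPM in VillinCreERT2 and 935 to 2029 CPM in the double knockout, with 4 of 7 markers lower, and the goblet cell sum 12281 to 14642 and 5157 to 7408 CPM, with 2 of 7 lower. Of the stem cell markers 2 of 8 and of the tested tuft cell markers 2 of 6 were lower as well. The part of these cells and markers was not tested. Double knockout replicate 2 stood apart in sex-linked transcripts, with Xist at 1.11 CPM against at least 113 CPM in the other 5 libraries and Ddx3y at 30.2 CPM against at most 0.103 CPM. Without it 2 genes were called, 1 in each direction, and without VillinCreERT2 replicate 2, 3 genes were called higher.

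**Figure D5:**
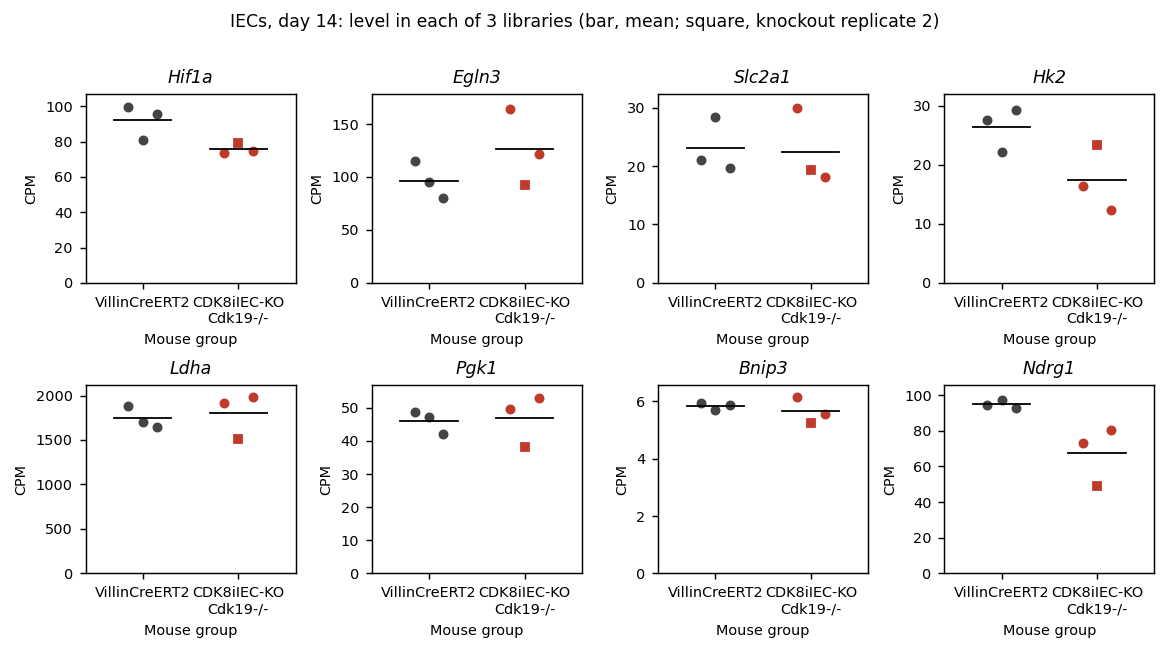
Level (CPM, linear axes from 0) of 8 genes in IECs of 3 VillinCreERT2 and 3 CDK8iIEC-KO/Cdk19-/- mice at day 14; black bars are means and the square is double knockout replicate 2. The groups overlap for Egln3, Slc2a1, Hk2, Ldha, Pgk1 and Bnip3, while the Hif1a values of the double knockout (73.7 to 79.1 CPM) lie below 81.0 CPM.

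Over the 12 comparisons of genotype or treatment, the calls of some of the genes are counted here. Several of these comparisons share libraries, so that the counts are not independent of each other. Car9 was called higher in 4 comparisons and Pfkfb4 in 3, and neither was called lower. Aldoc was called higher in 4 and lower in 0. The comparison between the control lines, C57BL/6 against VillinCreERT2, is counted among the 12. Ero1l was called higher in 2 and lower in 5, Ankrd37 higher in 1 and lower in 4, and Adm higher in 4 and lower in 2. Hif1a was called higher in 1 and lower in 2, and Epas1 higher in 1 and lower in 3. The control lines gave 1 of the higher calls each of Car9 and Aldoc, the higher call of Ankrd37, and 1 of the lower calls each of Ero1l, Adm, Hif1a and Epas1. The 15 genes called in none were Slc2a3, Gpi1, Pfkp, Pfkm, Aldoa, Tpi1, Pgk1, Eno1, Eno2, Pkm, Ldha, Egln1, Bnip3l, Ndrg1 and Hilpda. Among them are Aldoa, Tpi1, Pgk1, Eno1, Pkm and Ldha of the lower part of the pathway, for which the day 10 values with 4-OHT in standard medium ran from -0.15 to -0.38 on the log2 scale.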

How the data were processed

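RNA was sequenced from mouse organoids and IECs, and the submitters' processing notes name STAR 2.5.2, featureCounts of Subread 1.6.3 and the build mm10. The values are raw read counts per gene, deposited by the authors in 4 tables without normalization. Here the organoid lines of day 7, the time course, Wnt3-CM, the D173A line and the IECs were each fitted apart with edgeR 4.0.16 (R 4.3.3) using filterByExpr, TMM and the robust quasi-likelihood test, with Benjamini-Hochberg adjustment over all genes tested. Responses in different tables were compared in a joint fit over the groups of both tables. CPM used TMM-scaled library sizes, and each SE was derived from the log2 fold change and the F statistic of its test. The members and gene lists were chosen with earlier results of these data known. All 38 genes were accounted for in each comparison, values per library were given for called genes (the 8 largest where more than 8 were called), and 8 genes were named throughout. Of other genes, at most 4 per list were named, among those called. Some of these are not reported here. The columns of the D173A organoid line were assigned by elimination, with replicates of this line and of Wnt3-CM numbered as in the column names, and 6 IEC columns whose names did not settle the sample were not used. Same-numbered libraries did not deviate together in all pairs (0 of 20 comparisons had every correlation over 0.1). For Wnt3-CM and the D173A line the numbers of the column names were used, since their columns could be tied only to a group, and a block on them was added after seeing the data. Scripts were tested on simulated data. Alternatives were limma-voom 3.58.1, DESeq2 1.42.0, other filters, scalings and sample sets, a replicate block and leaving out each library. Depth was 15485959 to 32909565 counts per library.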

Additional observations from a re-analysis of the deposited data

Results flagged for a closer look

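The response to 4-OHT differed between days, media or lines for the genes below, by the interaction term of edgeR at the same cutoffs. Values are differences of log2 fold changes. Groups held 3 libraries, so that single libraries were not tested as outliers, and neighbouring differences share libraries.

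From day 3 to day 5 the response became lower for Ero1l (-1.25), Adm (-1.21), Slc16a3 (-0.82), Hk1 (-0.76), Hilpda (-0.68), Pgk1 (-0.62) and Pkm (-0.62), and higher for Gapdh (0.66) and Pfkfb4 (0.81). The calls of Gapdh (adjusted p = 0.0436) and Hilpda (adjusted p = 0.0454) were lost in most fits that left out 1 library, and that of Pgk1 without EtOH replicate 3 of day 5 (-0.56).

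From day 5 to day 7 the response became higher for Aldoc (0.94), Epas1 (0.77), Hk1 (0.71) and Bnip3 (0.69), and lower for Gapdh (-1.06). Gapdh, Pgk1, Pkm and Bnip3 share sequence with other genes.

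From day 7 to day 10 it became lower for Hk1 (-1.29), Egln3 (-1.27), Epas1 (-1.08), P4ha2 (-1.06), Hk2 (-1.04), Slc16a3 (-1.00), Aldoc (-0.99), Bnip3 (-0.97), Pfkfb3 (-0.97), Vegfa (-0.67), Pfkl (-0.59) and Pdk1 (-0.58). Pfkl and Pdk1 lay at the fold cutoff and lost their calls without any of several single libraries.

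At day 10 the response was higher in Wnt3-CM than in standard medium for P4ha2 (1.45), Slc16a3 (1.36), Ankrd37 (1.10), Bnip3 (0.95), Aldoc (0.93), Pdk1 (0.66), Pfkl (0.63) and Egln3 (0.62), and lower for Hif1a (-1.23). In the D173A line it was lower than in the Cdk19-/- line for Aldoc (-1.11), Hk1 (-1.07) and Vegfa (-0.66).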

How the results depend on the processing

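Of 117 calls of single genes, 86 were kept in every alternative run. Of their 1730 alternative values 1636 kept the call, 94 lost it and 0 changed sign, and 271 of 307 counts of these genes stayed within 1.5 times. With the mean of both control lines, CDK8iIEC-KO had 0 calls. Upper quartile scaling gave 1 call for Cdk19-/- organoids. At day 5 limma-voom gave 0 calls and a fit of the compared groups alone gave 2. Between days 5 and 7 of EtOH, DESeq2 and limma-voom gave 1 each. Without the genes that share sequence, the response from day 5 to day 7 differed for 3. In the D173A line 1 was called with no filter, and its response against the Cdk19-/- line differed for 7 with no filter and for 5 with at least 10 counts, DESeq2 or limma-voom. In IECs no filter gave 4 and DESeq2 2. Over all genes, a minimum of 10 counts gave 476 calls for Cdk19-/- organoids, 1303 at day 5 and 1187 for EtOH days 3 to 5. EtOH days 5 to 7 gave 184 with no filter, 139 with DESeq2 and 12 from these groups alone, and IECs gave 1103 with no filter and 859 with DESeq2. The cause was not tested in any of these.

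Leaving out 1 library gave 1 to 2 calls for CDK8iIEC-KO, 0 to 2 for Cdk19-/-, 1 to 4 at day 5, 0 to 1 for EtOH days 5 to 7 (3 to 164 over all genes), 0 to 3 in the D173A line, 3 to 6 for its difference and 0 to 3 in IECs (3 to 1566 over all genes). The labels' numbers are not known to pair libraries. In 3 of 20 comparisons, Wnt3-CM among them, every library correlated best with its own number. With a replicate block the IEC count over all genes was 8 instead of 228, and the difference from day 7 to day 10 held 11 genes instead of 12. A replicate block on the numbers of the column names, added after seeing the data, gave 3 calls instead of 2 in the D173A line, 7 instead of 3 for its difference from the Cdk19-/- line and 12 as before in Wnt3-CM. In simulated IEC data 39.5% of genes changed by 1 on the log2 scale were recovered, against 86.0% for the double knockout organoids.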
